A study of Mus musculus with 4 samples.

Results

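The 6 genes described here are the secretoglobins Scgb1a1, Scgb3a1 and Scgb3a2, the BPI-fold genes Bpifa1 and Bpifb1, and the carbonyl reductase Cbr2, taken from 23284 genes by their symbols and present in both deposited tables. They were chosen by name, as products of airway epithelium. Whole lungs of C57BL/6 mice were sequenced in 4 libraries, 1 per group. Il22-/- mice, which lack the cytokine interleukin-22, and wild-type mice were both sensitized and then challenged with HDM, the house dust mite extract of asthma models. Lung RNA of both came 48 h after the last HDM dose. Wild-type mice without allergen had been given recombinant IL-22 or phosphate-buffered saline (PBS) into the trachea, and their RNA was prepared 24 h later. Age, dose, the number of animals behind a library and the design of the knockout allele are not stated in the labels.

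Secretoglobins are small secreted proteins that pair through disulfide bonds around a hydrophobic pocket. Scgb1a1, also called CC10 or uteroglobin, is the hallmark product of club cells, the non-ciliated secretory cells of the small airways. Scgb3a2 is made by the same cells and is a target of the lung transcription factor NKX2-1, while Scgb3a1 is found more in the larger airways. BPI-fold proteins share the lipid-binding fold of the bactericidal/permeability-increasing protein. Bpifa1 (SPLUNC1) is a secreted defence protein of the nose, trachea and large airways that lowers surface tension and inhibits the epithelial sodium channel. Bpifb1 (LPLUNC1) is secreted by mucous cells and glands. Cbr2 is not secreted: it is an enzyme that reduces carbonyl compounds and is abundant in mouse airway epithelium.

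On GRCm38 (mm10), the 6 genes are annotated as protein coding, and none of them overlaps another annotated gene on either strand. Scgb1a1 lies on chromosome 19, 9083636 to 9087958 on the minus strand, with 3 exons. Scgb3a1 lies on chromosome 11, 49663610 to 49665118 on the plus strand, with 4 exons. Bpifa1 and Bpifb1 are near neighbours on the plus strand of chromosome 2, Bpifa1 at 154142880 to 154149219 with 9 exons and Bpifb1 at 154190818 to 154220369 with 16. Cbr2 lies on the minus strand of chromosome 11, 120729489 to 120732114, with 8 exons. No stretch of 31 bases in the annotated transcripts of Scgb1a1, Scgb3a1, Scgb3a2 or Bpifa1 was found in the transcript of another gene, and 0.277% of those of Bpifb1 were. Cbr2 shared 198 of its 1323 stretches with the pseudogene Gm11771, and whether reads of Gm11771 entered its value was not measured.

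The sequence before the start is shown for Bpifa1, Bpifb1 and Scgb3a1, which had a difference of at least 1.5-fold with IL-22, and for Cbr2, which had one in the HDM pair. Each is the 250 bases before an annotated start, from RefSeq on GRCm38.p6, written 5′ to 3′ on the strand of the gene. The gene positions given above are from GENCODE, and their starts can differ from those of RefSeq. The Cbr2 window thus overlaps Cbr2 as positioned above, and the Scgb3a1 window ends short of the start given above. Bpifb1 has a pair of annotated starts, and the deposited tables do not split its transcripts. Capitals mark every match, on either strand, to the motifs searched.
Scgb3a1, chr11:49663345-49663594, plus strand: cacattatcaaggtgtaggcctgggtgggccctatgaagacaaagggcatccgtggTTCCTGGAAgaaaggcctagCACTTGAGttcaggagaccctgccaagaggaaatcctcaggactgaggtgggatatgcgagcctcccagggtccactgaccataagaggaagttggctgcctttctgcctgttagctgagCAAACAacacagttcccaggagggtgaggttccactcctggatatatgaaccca
Bpifa1, chr2:154142630-154142879, plus strand: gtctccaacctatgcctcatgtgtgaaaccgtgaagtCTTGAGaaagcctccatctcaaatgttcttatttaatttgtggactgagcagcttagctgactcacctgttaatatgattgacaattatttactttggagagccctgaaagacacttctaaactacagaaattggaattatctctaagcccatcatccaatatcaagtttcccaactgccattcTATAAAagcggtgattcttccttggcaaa
Bpifb1 first start, chr2:154190568-154190817, plus strand: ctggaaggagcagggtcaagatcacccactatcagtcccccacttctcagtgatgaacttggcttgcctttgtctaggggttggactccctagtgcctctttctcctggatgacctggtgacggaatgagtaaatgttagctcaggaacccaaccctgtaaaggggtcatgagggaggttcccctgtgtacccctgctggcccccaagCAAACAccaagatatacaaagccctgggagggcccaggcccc
Bpifb1 second start, chr2:154200130-154200379, plus strand: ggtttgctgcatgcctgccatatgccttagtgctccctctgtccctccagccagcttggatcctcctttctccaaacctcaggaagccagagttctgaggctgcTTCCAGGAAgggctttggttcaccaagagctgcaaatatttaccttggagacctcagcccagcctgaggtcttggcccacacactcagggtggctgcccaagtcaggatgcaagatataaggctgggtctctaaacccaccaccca
Cbr2, chr11:120732022-120732271, minus strand: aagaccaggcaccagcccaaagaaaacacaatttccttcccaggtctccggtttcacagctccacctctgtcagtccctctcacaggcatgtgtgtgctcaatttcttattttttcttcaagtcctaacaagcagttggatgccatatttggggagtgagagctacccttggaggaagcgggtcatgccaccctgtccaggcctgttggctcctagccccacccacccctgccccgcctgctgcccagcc

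The STAT motif TTCNNNGAA, the form that STAT3 downstream of the IL-22 receptor is known to bind, was found in the Scgb3a1 window, 194 to 186 bases before the start, and before the second Bpifb1 start, 146 to 138 bases before it. Of 32851 windows of the same length, 7.02% hold it. The forkhead motif TGTTTG was found before Scgb3a1 and the first Bpifb1 start, and in 16% of all windows. The NKX2 motif CTCAAG was found before Scgb3a1 and Bpifa1 (13.3% of all windows), and its other form CACTTGA before Scgb3a1, where it overlaps the first (2.68%). TATAAA was found 29 to 24 bases before the Bpifa1 start, and in 12.4% of all windows. The longer forkhead form TGTTTAC (3.17%) and the C/EBP motif TTGCNNAA (9.56%) did not occur in these windows, and no motif searched occurred in that of Cbr2. A match is a description of these letters only. Scgb3a2, for which no sequence is shown, lies on the plus strand of chromosome 18, 43764289 to 43767399.

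The values are FPKM, fragments scaled by transcript length and library size, which can be compared between genes. From the steps of low values, the depth was estimated at 27.3 and 24.97 M reads for the Il22-/- HDM and wild-type HDM libraries and at 28.9 and 19.99 M for the IL-22 and PBS libraries. Il22 was listed at 0 in the Il22-/- HDM library and at 0.362 FPKM in the wild-type HDM library. It was also listed at 0 in the IL-22 and PBS libraries, so a 0 does not by itself mark the knockout. With 1 library per group no difference has a replicate check, the spread between animals is unknown, and no p-value was computed. In whole lung, fewer cells of a type and less RNA per cell cannot be told apart. A difference is that of log2(FPKM + 1) within a table, which understates differences of low genes, and the size rule for a call was a difference of at least 1 in either direction. Genes count as measured when the mean FPKM of the pair reached 1.

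Scgb1a1 was the most abundant gene of every library, ahead of the surfactant gene Sftpc. Its level was 127473 FPKM in Il22-/- HDM lung and 124426 FPKM in wild-type HDM lung, and 112693 FPKM in IL-22 lung and 141280 FPKM in PBS lung. That is 18.9% and 18.3% of the total FPKM in the HDM libraries, and 17.6% and 20.5% with IL-22 and PBS. The other 5 genes lay far below it. Cbr2 ranked 7th and 15th in Il22-/- and wild-type HDM lung, and 5th and 4th in IL-22 and PBS lung. Scgb3a1 ranked 48th and 53rd in the HDM pair and 14th and 39th in the other, and Scgb3a2 52nd and 84th, and 16th and 17th. The BPI-fold genes were lower, with ranks between 233 and 727 for Bpifb1 and between 239 and 4354 for Bpifa1.

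**Figure D1:**
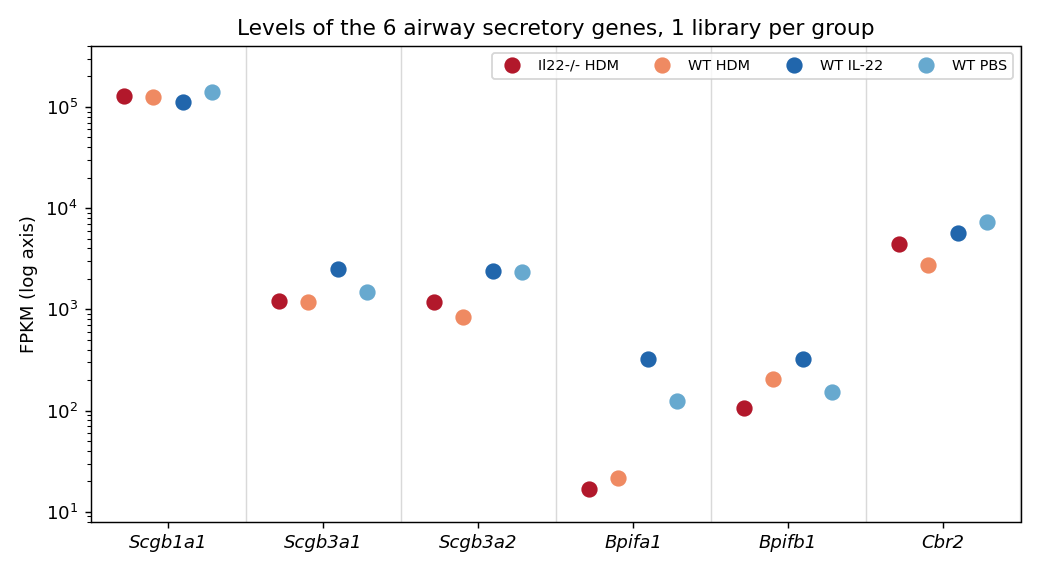
FPKM (log axis) of the 6 genes in the 4 libraries, with 1 point per library and no error bars because each group had 1 library. Scgb1a1 stays between 112693 and 141280 FPKM, while Bpifa1 runs from 16.6 FPKM in Il22-/- HDM lung to 321 FPKM in IL-22 lung.

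Because FPKM divides by length, the short Scgb1a1 transcript of 476 bases weighs more in FPKM than in reads. Counted as estimated reads over the length less 200 bases, Scgb1a1 took 3.87% and 3.80% of reads in Il22-/- and wild-type HDM lung, and 3.42% and 4.24% in IL-22 and PBS lung. These are shares of the reads summed over genes with a usable length. That sum was 90.4% (wild-type HDM) to 92.0% (PBS) of the estimated depth, so shares of the whole depth would be lower. Over full length the shares were 5.83% and 5.71% in Il22-/- and wild-type HDM lung, and 5.18% and 6.37% with IL-22 and PBS. All 6 genes together held 19.9% and 19.0% of FPKM in the HDM libraries, and 19.4% and 22.2% with IL-22 and PBS. Without Scgb1a1 the other 5 held 1.02% and 0.730% in Il22-/- and wild-type HDM lung, and 1.76% and 1.65% in IL-22 and PBS lung. The total FPKM of the IL-22 library was 48255 below that of the PBS library, and the value of Scgb1a1 was 28587 lower. In the HDM pair the total of the Il22-/- library was 6789 below that of the wild-type library, while Scgb1a1 was 3047 higher.

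**Figure D2:**
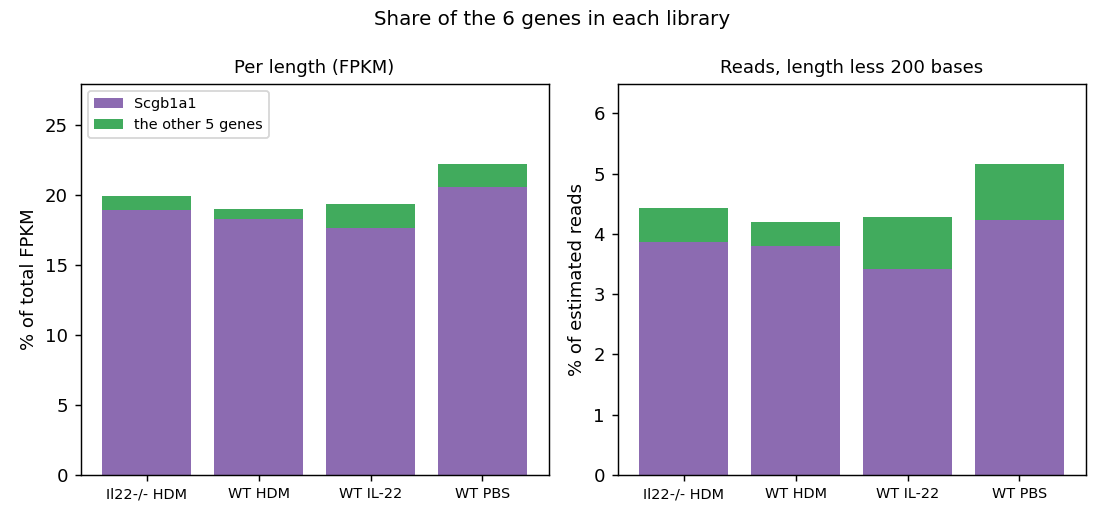
Share of the 6 genes in each library, as a percentage of total FPKM (left) and of estimated reads (right), with Scgb1a1 in purple and the other 5 genes stacked in green. Scgb1a1 fills most of each bar on both scales, 17.6 to 20.5% of FPKM but 3.42 to 4.24% of reads.

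The HDM pair sets lungs without IL-22 beside wild-type lungs under the same allergen. None of the 6 genes was called, where 2.97% of 13285 measured genes were called in either direction, 0.549% higher and 2.42% lower. The secretoglobins lay at or above the wild-type level, Bpifb1 and Bpifa1 lay below it, and Cbr2 lay above it. The median difference of the 6 was 0.05, beside 0.03 for all measured genes. At a smaller size rule of 1.5-fold, Bpifb1 was lower and Cbr2 higher, and 9.64% of measured genes passed that rule, 3.23% higher and 6.41% lower.

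Bpifb1 had 106 FPKM in Il22-/- HDM lung and 204 FPKM in wild-type HDM lung. The difference of -0.94 was just short of the size rule, and only 2.69% of measured genes had a lower one. Its estimated reads were 4253 in Il22-/- and 7490 in wild-type lung. The fold was 0.519, with an exact binomial 95% interval of 0.5001 to 0.539. A fold here is the ratio of FPKM, which differs from the ratio of reads because the libraries differ in depth. Its interval comes from the reads, scaled by depth, and such intervals cover counting error only. Bpifa1 had 16.6 FPKM in Il22-/- HDM lung and 21.5 FPKM in wild-type HDM lung, or an estimated 411 and 486 reads, a fold of 0.775 (0.677 to 0.884) and a difference of -0.35. Both BPI-fold genes were therefore at lower values in the knockout library, Bpifb1 by more than Bpifa1.

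Among the secretoglobins, Scgb1a1 differed by 0.03 and Scgb3a1 by 0.06, with Scgb3a1 at 1222 FPKM in Il22-/- HDM lung and 1170 FPKM in wild-type HDM lung. Scgb3a2 stood apart from them, at 1183 FPKM in Il22-/- HDM lung and 850 FPKM in wild-type HDM lung, a fold of 1.39 (1.35 to 1.43) and a difference of 0.48. Cbr2 had 4375 FPKM in Il22-/- HDM lung and 2727 FPKM in wild-type HDM lung, a fold of 1.60 (1.59 to 1.62) and a difference of 0.68. Of the measured genes, 98.0% had a lower difference than Cbr2 and 94.2% a lower one than Scgb3a2.

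Other genes of club cells went both ways. Over all measured genes of the HDM pair, 2.97% were called either way, 46.1% lay below 0 and the median was 0.03. Of 22 club cell genes outside the 6, 21 were measured, none was called, 14 lay above 0 and 7 below, and the median was 0.13. Among those above 0, Cyp2f2, the club cell cytochrome P450, was at 1322 FPKM in Il22-/- HDM lung and 813 FPKM in wild-type HDM lung. The flavin monooxygenase gene Fmo2 was at 314 FPKM in Il22-/- HDM lung and 166 FPKM in wild-type HDM lung. Selenbp1, a selenium-binding protein gene, was at 366 and 193 FPKM in Il22-/- and wild-type lung, and the glutathione transferase gene Gsta3 at 146 and 90.2. Below 0 were Lypd2 at 133 FPKM in Il22-/- and 202 in wild-type lung, the matrix protein gene Chad at 30.2 and 45.6, and Aldh1a7, an aldehyde dehydrogenase gene, at 79.8 and 116.

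Mucous genes, which include markers of the cells that secrete Bpifb1, were lower. In the list of goblet cells and mucus, 8 of 11 measured genes were called lower, 0 higher, and the median was -1.68, where 2.42% of all measured genes were called lower. Of the 8, Muc5ac, Tff1 and Itln1 were under 1 FPKM in the Il22-/- library and passed the filter on low values only through the wild-type library, so they had to be lower and their calls support nothing. Muc5b, the gel-forming mucin of club and gland cells, was at 8.42 FPKM in Il22-/- HDM lung and 17.8 FPKM in wild-type HDM lung and fell just short of the size rule. Muc5ac, a goblet cell mucin gene, had 0.963 FPKM in Il22-/- and 9.43 FPKM in wild-type HDM lung. Spdef, the transcription factor of goblet cells, was the 1 called gene of 15 measured airway epithelial regulators, at 1.44 FPKM in Il22-/- and 4.81 FPKM in wild-type HDM lung. The others included Nkx2-1, an activator of secretoglobin genes, at 66.3 and 64.9 FPKM in Il22-/- and wild-type lung, and the epithelial ETS factor Ehf at 12.0 and 18.6. The part of mucous cells in the difference of Bpifb1 was not tested.

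Of 16 measured genes of ciliated cells, the other main airway cell type, none was called, with a median of -0.20. Of these, 14 lay below 0, as did 46.1% of all measured genes. Spef2, at 0.968 FPKM in Il22-/- and 1.37 FPKM in wild-type lung, passed the filter only through the wild-type library and had to be lower. The 2 above 0 were Tppp3, at 593 FPKM in Il22-/- and 388 FPKM in wild-type HDM lung, and Sec14l3, at 495 and 398. Summed, the ciliated list was at 1511 and 1282 FPKM in Il22-/- and wild-type HDM lung. Of 14 serous and gland genes in the tables, 5 were measured and 5 others were listed at 0 in both libraries. Among the 5 measured 3 were called lower, namely Pigr, which carries IgA into the airway, Lcn2 and Reg3g. Over all measured genes, 2.42% were called lower. Ltf, at 17.8 and 21.3 FPKM in Il22-/- and wild-type HDM lung, and Lyz1, at 1574 and 1337 FPKM, were not called. Pigr was at 55.9 FPKM in Il22-/- HDM lung and 173 FPKM in wild-type HDM lung. Markers of tissue outside the epithelium also moved in this pair. Heart muscle genes, summed, were at 153 FPKM in Il22-/- HDM lung and 396 FPKM in wild-type HDM lung, with 8 of 9 measured genes called lower, Nppa among them through the wild-type library alone. Smooth muscle genes summed to 478 and 692 FPKM in Il22-/- and wild-type lung with 1 of 9 called, and fat genes to 59.3 and 141 FPKM with 3 of 5 called. Other lists lay the other way. Erythroid genes summed to 12941 and 6024 FPKM in Il22-/- and wild-type lung with 4 of 5 called higher, where 0.549% of all measured genes were. Endothelial genes lay above 0 in 9 of 10 cases, with a median of 0.46 and Clec14a called higher. The part of these tissues in the differences of the BPI-fold genes, Cbr2 and Scgb3a2 was not tested.

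The other pair sets lungs given IL-22 beside lungs given PBS, 24 h after dosing and with no allergen. Bpifa1 and Bpifb1 were called higher with IL-22, 2 of the 6 genes, where 0.597% of 13233 measured genes were called higher and 0.786% either way. Scgb3a1 lay above PBS but short of the size rule, Scgb3a2 was level, and Scgb1a1 and Cbr2 lay below PBS. The median difference of the 6 was 0.40, beside 0.04 for all measured genes. At the 1.5-fold rule Scgb3a1 was higher too, making 3 of the 6, where 2.42% of measured genes passed, 1.96% higher and 0.461% lower.

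Bpifa1 had 321 FPKM in IL-22 lung and 124 FPKM in PBS lung, a difference of 1.36. With an estimated 8393 reads with IL-22 and 2244 with PBS, scaled by depth, the fold was 2.59 (2.47 to 2.71). Bpifb1 had 324 FPKM in IL-22 lung and 152 FPKM in PBS lung, a fold of 2.13 (2.06 to 2.21) and a difference of 1.09. Of the measured genes, 99.7% had a lower difference than Bpifa1 and 99.5% a lower one than Bpifb1. Within a library the ratio of Bpifa1 to Bpifb1 was 0.989 with IL-22 and 0.816 with PBS, and 0.157 and 0.105 in Il22-/- and wild-type HDM lung.

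Scgb3a1 was at 2515 FPKM with IL-22 and 1500 FPKM with PBS, a fold of 1.68 (1.64 to 1.71) and a difference of 0.75, above that of 98.9% of measured genes. Scgb1a1 lay the other way, with a fold of 0.798 (0.795 to 0.800) and a difference of -0.33, and 2.68% of measured genes had a lower one. The ratio of Scgb1a1 to Scgb3a1 was thus 44.8 in IL-22 lung and 94.2 in PBS lung, beside 104 and 106 in Il22-/- and wild-type HDM lung. Scgb3a2 was at 2394 FPKM with IL-22 and 2313 FPKM with PBS, a difference of 0.05. Cbr2 was at 5715 FPKM with IL-22 and 7280 FPKM with PBS, a fold of 0.785 (0.779 to 0.791) and a difference of -0.35.

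**Figure D3:**
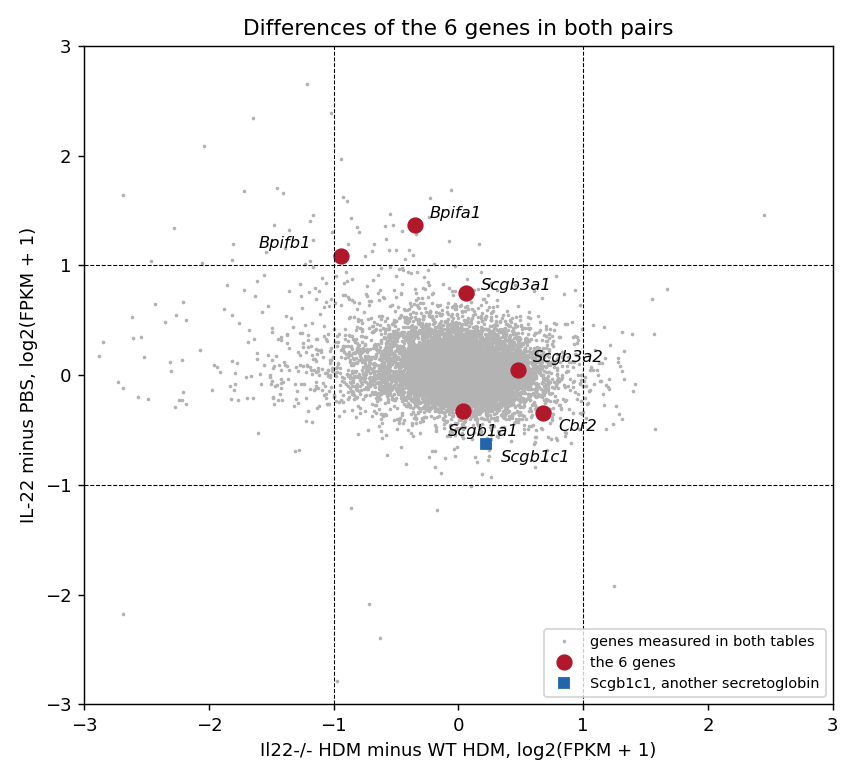
Difference of log2(FPKM + 1) between Il22-/- and wild-type HDM lung (x axis) and between IL-22 and PBS lung (y axis) for genes measured in both tables (grey), with the 6 genes in red, Scgb1c1 as a blue square and the size rule dashed. Bpifa1 and Bpifb1 lie above the upper dashed line, Bpifb1 close to the left one, and Cbr2 lies to the lower right; 30 of 12902 genes fall beyond the axes.

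The club cell genes outside the 6 gave no called gene of 22 measured and a median of -0.01. Over all measured genes of this pair, 0.786% were called either way and the median was 0.04. Cyp2f2 was at 2429 FPKM with IL-22 and 2869 FPKM with PBS, Cyp2b10 at 117 and 153 FPKM with IL-22 and PBS, and Fmo2 at 257 and 202. Among genes of goblet cells and mucus, 7 of 7 measured had a positive difference, with a median of 0.42. Of these, Fcgbp, at 1.29 FPKM with IL-22 and 0.716 FPKM with PBS, passed the filter only through the IL-22 library. It had to be positive and adds nothing to that count. At a mean FPKM of at least 5, 4 genes remained, with a median of 0.54. Clca3, which encodes a goblet cell secreted protein, was called higher, as were 0.597% of all measured genes. Muc5b was at 12.8 FPKM with IL-22 and 9.31 FPKM with PBS. Of 6 measured serous and gland genes Reg3g was called higher, and Ltf, which encodes lactoferrin, had 39.4 FPKM with IL-22 and 19.8 FPKM with PBS. Ciliated cell genes lay above 0 in 14 of 16 cases with none called and a median of 0.30. Of all measured genes, 41.4% lay below 0. The ciliated gene Spef2, at 1.42 FPKM with IL-22 and 0.590 FPKM with PBS, passed the filter only through the IL-22 library and had to lie above 0. Another ciliated gene, Rsph4a, a radial spoke gene, had 9.16 FPKM with IL-22 and 5.05 FPKM with PBS.

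None of 15 measured airway epithelial regulators was called with IL-22. Nkx2-1 was at 67.2 FPKM with IL-22 and 99.0 FPKM with PBS, a difference of -0.55, while Foxa2 was at 23.6 and 26.0 FPKM. Alveolar type I genes lay below 0 in 7 of 8 cases, with Ager, a receptor on these cells, at 2100 FPKM with IL-22 and 3129 FPKM with PBS, and alveolar type II genes had a median of 0.02. Genes of smooth muscle, fat and heart muscle lay above 0 in 9 of 9, 6 of 6 and 8 of 9 measured cases, and 3, 5 and 1 of them were called higher. Over all measured genes, 0.597% were called higher and 41.4% lay below 0. Summed, the smooth muscle, fat and heart muscle lists were at 1091, 484 and 1131 FPKM in IL-22 lung and at 560, 217 and 776 FPKM in PBS lung. Acta2, the smooth muscle actin, was at 445 FPKM with IL-22 and 209 FPKM with PBS. Of the lists for cartilage, airway basal cells and nasal epithelium, 1 of 14, 2 of 9 and 1 of 7 genes in the tables were measured, namely Matn4, Icam1 with Snai2, and Gnal. Among the rest, the cartilage gene Col2a1 had 0.00730 FPKM with IL-22 and 0.0105 FPKM with PBS, Acan had 0.00483 FPKM with IL-22 and was listed at 0 with PBS, the basal cell gene Krt5 had 0.104 FPKM with IL-22 and 0.0251 FPKM with PBS, and Trp63 had 0.491 and 0.405. Also under the filter, the basal cell gene Krt15 had 0.934 FPKM with IL-22 and 0.559 FPKM with PBS, and Krt14 had 0.415 and 0.445. Sox9, of the cartilage list, had 0.377 FPKM with IL-22 and 0.253 FPKM with PBS. The cartilage list summed to 18.4 FPKM with IL-22 and 30.3 FPKM with PBS, most of it from Matn4. Nasal and olfactory genes summed to 2.10 and 2.41 FPKM with IL-22 and PBS. The part of muscle- and fat-containing tissue, or of large-airway tissue, in the differences of Bpifa1, Bpifb1 and Scgb3a1 was not tested.

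**Figure D4:**
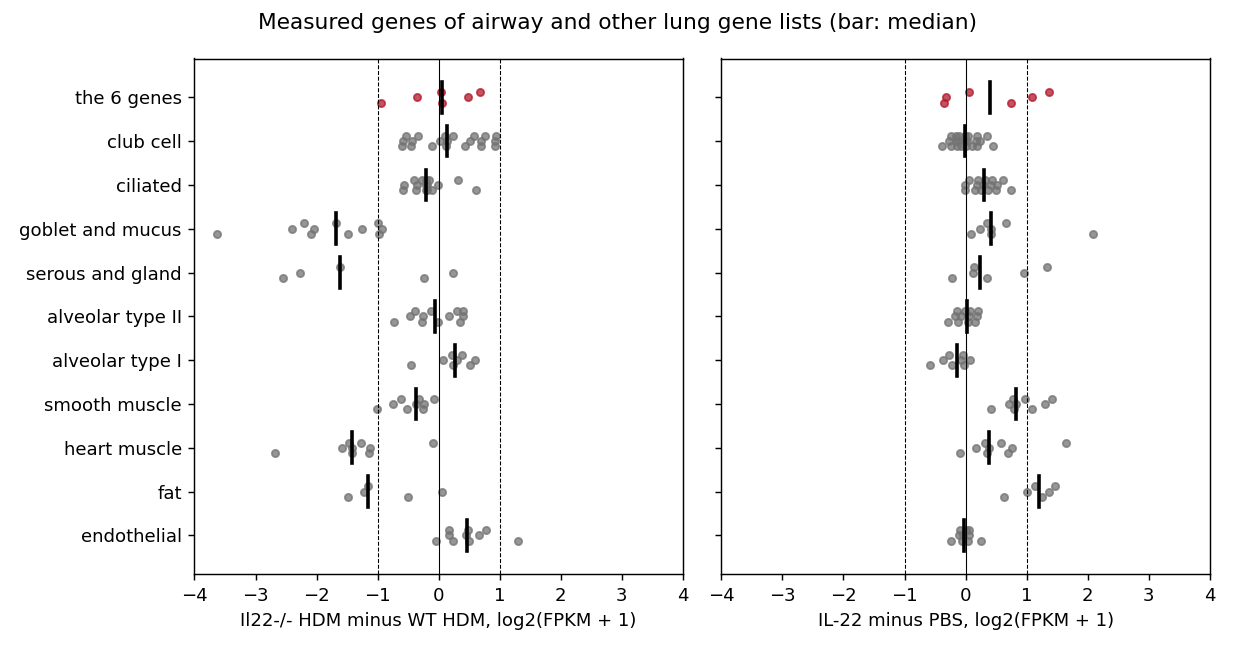
Difference of log2(FPKM + 1) of each measured gene of the 6 (red) and of 10 other lists (grey), for Il22-/- minus wild-type HDM lung (left) and IL-22 minus PBS lung (right), with the list median as a bar and the size rule dashed. Goblet cell genes lie left of 0 in the HDM pair and right of it with IL-22, and so do those of smooth muscle, while club cell genes stay within the dashed lines in both.

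Whether the pairs were scaled together is not stated, so values from both tables are set side by side as deposited, and their order is a description only. Over 13307 genes, the median difference of log2(FPKM + 1) between wild-type HDM and PBS lung was -0.02. Bpifa1 was at 16.6 and 21.5 FPKM in the Il22-/- and wild-type HDM libraries, and at 321 and 124 FPKM in the IL-22 and PBS libraries, so that both HDM libraries lay below both others. Bpifb1 did not share this order: wild-type HDM lung, at 204 FPKM, lay between IL-22 lung at 324 and PBS lung at 152, and Il22-/- HDM lung was lowest at 106. Cbr2, Scgb3a2, Scgb3a1 and Cyp2f2 were lowest in wild-type HDM lung, next in Il22-/- HDM lung, and had larger values in both libraries without allergen. Club cell genes did not all share this order: Aldh1a7 was highest in wild-type HDM lung and Fmo2 in Il22-/- HDM lung. For Scgb3a2 these levels were 1183 FPKM in Il22-/- HDM lung and 850 in wild-type HDM lung, beside 2394 with IL-22 and 2313 with PBS. Scgb3a1 was at 1222 and 1170 FPKM in the HDM libraries, Il22-/- and wild type, beside 2515 with IL-22 and 1500 with PBS. The HDM and other lungs also differ in the time after the last dose, 48 h and 24 h, and this cannot be told apart from the allergen.

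Of 27 secretoglobin symbols 4 were analysed here, the 3 above and Scgb1c1, and all 4 were measured in both pairs. Scgb1c1 was at 45.3 FPKM in Il22-/- HDM lung and 38.7 FPKM in wild-type HDM lung, a fold of 1.17 whose interval of 0.984 to 1.38 includes no difference. With IL-22 it was at 37.4 FPKM and with PBS at 58.2 FPKM, a fold of 0.641 (0.542 to 0.758) and a difference of -0.63, on the side of Scgb1a1 and not of Scgb3a1. Only 0.408% of measured genes had a lower difference in that pair.

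Of the BPI-fold and lipid transfer genes, 17 were analysed and 9 of them were listed at 0 in all 4 libraries, among them Bpi itself. Besides Bpifa1 and Bpifb1, the measured ones were Pltp, Lbp and Bpifb5 in both tables and Bpifa2 in the IL-22 and PBS table, and none of these was called. Pltp, the phospholipid transfer protein, was at 214 FPKM in Il22-/- HDM lung and 182 FPKM in wild-type HDM lung, and at 218 FPKM with IL-22 and 288 FPKM with PBS. Lbp, which hands bacterial lipopolysaccharide to CD14, was at 32.7 and 39.2 FPKM in Il22-/- and wild-type HDM lung, and at 35.6 and 37.2 FPKM with IL-22 and PBS. Bpifb5, the next gene after Bpifb1 on chromosome 2, was at 3.52 and 4.01 FPKM in the HDM pair, Il22-/- and wild type, and at 3.04 and 3.24 FPKM with IL-22 and PBS. Its fold with IL-22 was 0.938 (0.712 to 1.24), an interval that includes no difference. Bpifa2, a salivary member on the other side of Bpifa1, had an estimated 16 and 17 reads in the HDM pair, Il22-/- and wild type, and 25 and 14 with IL-22 and PBS, a fold of 1.19 (0.618 to 2.57). Within the cluster the higher value with IL-22 was thus seen for Bpifa1 and Bpifb1, and not detected for the other expressed genes Bpifb5 and Bpifa2. Bpifa5, which lies between Bpifa1 and Bpifb1, was listed at 0 throughout.

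**Figure D5:**
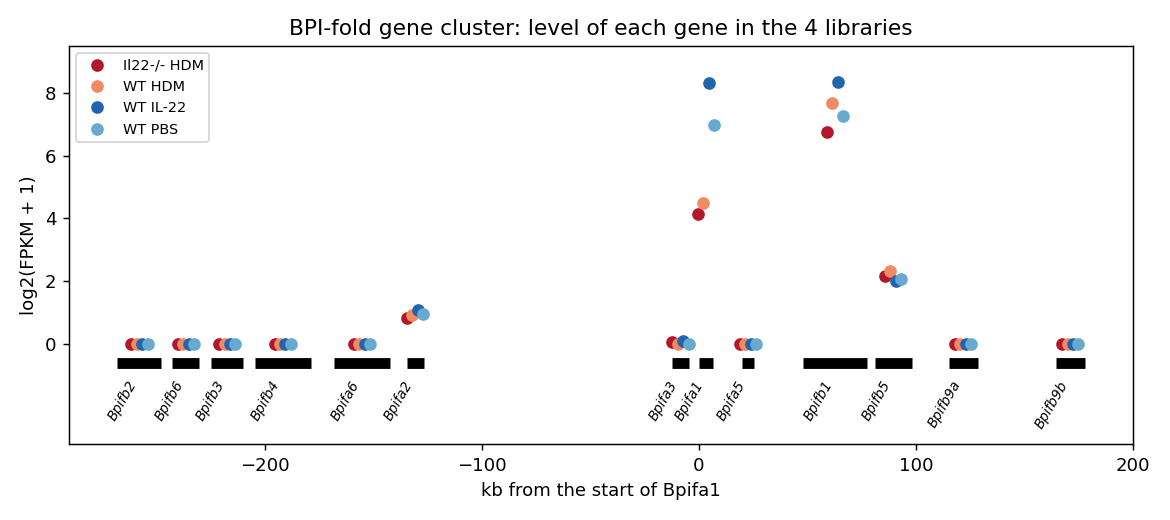
Level, as log2(FPKM + 1), of each gene of the BPI-fold cluster on chromosome 2 in the 4 libraries, placed by distance in kb from the start of Bpifa1, with black bars for gene bodies and points spread sideways for legibility. Bpifa1 and Bpifb1 stand out, and 9 of the 13 genes lie at or next to 0.

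Of the carbonyl-reducing enzyme genes, Cbr2 included, 8 were measured in the HDM pair and 7 in the other, and none was called, with medians of 0.01 and -0.04. Cbr1 was at 58.1 FPKM in Il22-/- HDM lung and 67.5 FPKM in wild-type HDM lung, and at 82.4 FPKM with IL-22 and 84.8 FPKM with PBS. Dcxr, the dicarbonyl reductase gene that neighbours Cbr2, was at 95.7 and 74.5 FPKM in Il22-/- and wild-type HDM lung, and at 139 and 164 FPKM with IL-22 and PBS. Among genes reported to bind or be targeted by the secreted proteins, Cd14 was the 1 called gene of 10 measured in the HDM pair. It was at 18.4 FPKM in Il22-/- and 40.5 FPKM in wild-type lung, where 2.97% of all measured genes were called either way. None of these genes was called with IL-22. Scnn1a, a subunit of the sodium channel that Bpifa1 inhibits, was at 121 and 102 FPKM in Il22-/- and wild-type HDM lung, and at 114 and 152 FPKM with IL-22 and PBS. Marco, a macrophage scavenger receptor reported to bind Scgb3a2, was at 4.43 and 3.07 FPKM in Il22-/- and wild-type HDM lung, and at 21.6 and 25.3 FPKM with IL-22 and PBS.

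Genes most like each of the 6 were sought by the distance between their pairs of differences among the 5400 named coding genes whose mean FPKM reached 10 in each table. This was done for the 4 genes that lay at least 0.5 from no difference in both pairs together. For Bpifa1 the nearest was Cnn1, a calponin of smooth muscle, at a distance of 0.06, with differences of -0.37 and 1.42, followed by Eno1 and Lst1. No other gene lay within 0.25 of it. For Bpifb1 the nearest were Basp1 at 0.12 and the actins Acta2 at 0.19 and Actg2 at 0.23, 3 of 4 genes within 0.25. For Scgb3a1 they were Dmpk, Scd1 and Ndrg1 among 13 such genes, and for Cbr2 they included Bckdha and Id3 among 75. These rest on 4 libraries, and likeness here is a description only.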

How the data were processed

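RNA from 4 lungs or lung pools was sequenced, 1 library per group. The authors' deposited FPKM values, 1 table per pair, were used as given. Per the submitters' processing notes, the tools were CASAVA (1.8.2), TopHat2 and Cufflinks (2.2.1), with mm10. How libraries were scaled, and whether strand was used, is not given in these sources. Of 23746 rows, 25 symbols turned into dates were restored from the accession, and rows of 1 symbol were added. Positions and lengths are from GENCODE M21.

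Depth was estimated from the most frequent product of FPKM and length less 200 bases, taken as the value of a single read. The depth is the inverse of that value, in the units of FPKM. Between 61.5% and 62.6% of low values then lay within 0.1 of a whole read, where evenly spread values would give 20%. The step was fitted to values of the same genes, so this share is not an independent check of the depth. Folds are ratios of FPKM. Intervals of folds are exact binomial 95% intervals on reads estimated this way, scaled by the ratio of the depths. Reads carried no stated molecular identifiers.

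The 6 genes and the lists were chosen with earlier results of these data known. Named were the 6, secretoglobin and BPI-fold genes with mean FPKM of 1 or more, up to 4 genes per list by size of difference, and the nearest genes. Il22, Cyp2f2, Gsta3, Lypd2, Chad, Aldh1a7, Sec14l3, Foxa2, Tff1, Col2a1, Acan, Sox9, Krt5, Krt14, Krt15, Trp63 and neighbouring genes were added after their values were seen. Some genes that this rule names are not reported here. Software was Python 3.11.15 with numpy 2.4.6, pandas 2.3.3 and scipy 1.17.1; figures used matplotlib 3.10.9.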

Additional observations from a re-analysis of the deposited data

How the results depend on the processing

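Under the 4 alternatives that can change a difference, a pseudocount of 0.1 and 3 scalings, the 6 genes kept the direction of both differences. The calls changed with the size rule alone. At 1.5-fold, 2 of the 6 genes were called in the HDM pair (Bpifb1 lower and Cbr2 higher) in place of 0, and 3 in the other pair, where Scgb3a1 joined Bpifa1 and Bpifb1. At a size of 1.5, 0 were called in either pair. The sign of Scgb1a1 and Scgb3a1 in the HDM pair and of Scgb3a2 with IL-22 held, but by little: under the median ratio their differences were 0.0050, 0.03 and 0.01. Bpifb1 in the HDM pair ran from -0.97 (median ratio) to -0.91 (common total without the 6 genes). With IL-22 and a common total, Scgb1a1 was at -0.22, all genes had a median of 0.13, and the median of the 6 was 0.50. Calls over all genes numbered 619 in the HDM pair and 166 in the other with a pseudocount of 0.1, in place of 395 and 104, and 1281 and 320 at 1.5-fold and 151 and 52 at a size of 1.5. Leaving small RNAs out of the total, the 6 genes held 20.5% and 19.6% of FPKM in Il22-/- and wild-type HDM lung and 19.6% and 22.4% with IL-22 and PBS. As estimated reads over the length less 200 bases they held 4.43%, 4.20%, 4.29% and 5.15% in the same order, and over full length 6.45%, 6.16%, 6.16% and 7.38%. Of 112 list medians recomputed, 96 moved by less than 0.1 and kept their sign. No paired analysis was possible because each group has 1 library, and for the same reason no replicate could be left out.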

Other observations

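The coding genes beside Cbr2 on chromosome 11 that had values, chosen after these were seen, lay on its side in both pairs. Hmga1b, also beside Cbr2, had none. Rac3, a small GTPase gene, was at 15.1 FPKM in Il22-/- HDM lung and 10.46 FPKM in wild-type HDM lung, and at 23.1 FPKM with IL-22 and 29.3 FPKM with PBS. Rfng, a glycosyltransferase gene that modifies Notch receptors, was at 10.2 and 7.99 FPKM in Il22-/- and wild-type HDM lung, and at 16.9 and 20.6 FPKM with IL-22 and PBS. With Dcxr, described above, the differences of these 3 neighbours were between 0.32 and 0.49 in the HDM pair and between -0.33 and -0.23 with IL-22, beside 0.68 and -0.35 for Cbr2. Of all measured genes, 88.7% had a lower difference than Dcxr in the HDM pair, and 6.23% with IL-22. The measured coding neighbours of Scgb1a1 were Eef1g, Ahnak and Asrgl1. Their differences lay between -0.07 and 0.25 in the HDM pair and between -0.04 and 0.12 with IL-22. Flt4, Cnot6 and Gfpt2, the measured neighbours of Scgb3a1, lay between -0.81 and 0.23 in the HDM pair and between -0.20 and 0.41 with IL-22. The part of position in these differences was not tested.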
